A study of Caenorhabditis elegans with 10 samples.

Results

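The dod genes are transcripts named for lying downstream of DAF-16, the single FOXO transcription factor of the nematode Caenorhabditis elegans. Those measured were dod-3, dod-6, dod-17, dod-18, dod-19, dod-20, dod-22, dod-23 and dod-24, taken by their gene symbol in the platform annotation, with the probe set of highest mean over the 10 arrays standing for a gene that had more than 1. All 9 genes of that list were found, out of 17118 genes measured by a probe set with 1 symbol. Another gene of the name, dod-21, shares its probe set with cld-1 and was not used. The 5 xpa-1 arrays hold total RNA from worms of genotype xpa-1 (ok698) I, a mutant deficient in xpa-1, the counterpart of the human nucleotide excision repair protein XPA. The 5 N2 arrays hold total RNA from the wild-type strain Bristol N2. Worms of both strains were untreated and of mixed stage, were grown at 20 degrees on plates of HT115(DE3) bacteria for 3 to 4 days, and were pooled from 10 to 20 plates for each replicate. Age is given for neither strain beyond mixed stage, so an array averages over embryos, larvae, adults and all of their tissues, and fewer cells of a type cannot be told apart from less RNA per cell.

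In C. elegans the insulin receptor DAF-2 signals through a phosphoinositide 3-kinase and the AKT kinases to keep DAF-16 out of the nucleus. When that signal is weak DAF-16 enters the nucleus, and its targets fall into a class I that goes up and a class II that goes down. By that scheme dod-3 and dod-6 are class I genes, and dod-17 to dod-24 are class II genes. Several class II genes are also known from the intestine and from its response to bacterial pathogens, and dod-17, dod-22 and dod-24 encode proteins with a CUB-like domain found in many infection-response proteins of worms. Mutants with DNA repair defects have been linked in worms to changes in insulin signalling, and the comparison asks whether the dod genes differ in level or in spread when xpa-1 is lost and no damaging agent is added.

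The strain labels were checked with xpa-1 itself. It lay between 0 and 1.58 in log2 signal on the xpa-1 arrays, against 6.38 to 6.88 on the N2 arrays (limma adjusted p = 4.92e-05). The xpa-1 values are at the lowest steps of the scale, so no fold is given. All values are log2 probe set signals, in which 0 is the floor of the scale, and differences are xpa-1 minus N2. Arrays have no read depth, and their number limits the precision. Of the 13 measured markers of the intestine, the tissue with which several dod genes are linked, the yolk protein genes vit-5 and vit-6 were the brightest, with vit-5 at 11.94 ± 0.16 in xpa-1 and 11.95 ± 0.21 in N2 (SD, n = 5 each), and the transcription factor genes elt-2 and elt-7 were above 5 in both strains.

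No dod gene passed the threshold between the strains. Of the 9 genes, 0 had an adjusted p under 0.05 in limma, each with an adjusted p of 1 over all genes, where 0.111% of all genes were called. At an unadjusted p under 0.05 there were 3, dod-18, dod-22 and dod-23, against 3.32% of all genes. All 3 were lower in xpa-1, a direction and threshold met by 1.33% of all genes. The count of 3 was 1 with arrays centred on their medians and 1 among the 7 genes with a mean signal of 4 or more. It was 0 with replicate number as a block or without xpa-1 array 4, and between 1 and 3 when any other array was left out. With array weights it was 4, with the trend and robust options of limma 2, and with quantile normalization or 16 added to the unlogged signals 3. The strains overlapped in every one of the 9 genes, while 0.374% of all genes had strains that did not overlap. The median difference of the 9 was -0.11, with 3 genes above 0 and 6 below, beside a median of 0.02 over all genes, of which 55.6% were above 0. Leaving out 1 array moved the median of the 9 between -0.19, without xpa-1 array 3, and -0.006, without N2 array 3; it was -0.028 without xpa-1 array 5, -0.043 without N2 array 4 and -0.066 without N2 array 5.

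The CUB-like genes dod-22, dod-24 and dod-17 share a domain and a stretch of chromosome IV. The log2 signals of dod-22 (F55G11.5) were 3.70, 2.32, 3.58, 3.46 and 3.00 on xpa-1 arrays 1 to 5, against 3.00, 4.32, 4.17, 4.46 and 4.00 on N2 arrays 1 to 5. Every xpa-1 array was below N2 arrays 2 to 5, and N2 array 1 lay among the xpa-1 arrays. The means were 3.21 ± 0.56 in xpa-1 and 3.99 ± 0.58 in N2 (SD, n = 5 each). The difference was -0.78 (SE 0.34, 95% interval -1.55 to -0.011, limma unadjusted p = 0.0474, adjusted p = 1), a signal 1.71-fold lower in xpa-1, and the two-sided exact permutation test gave p = 0.0714. Without N2 array 1 the difference was -1.03 (limma unadjusted p = 0.00628), and without xpa-1 array 2 it was -0.56 (limma unadjusted p = 0.104). The signal is low, and with 16 added to the unlogged signals the difference was -0.34, smaller than that of dod-23 on that scale (-0.43).

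For dod-24 (C32H11.12), the xpa-1 arrays read 5.04, 5.32, 5.61, 5.49 and 4.91 in log2 signal, against 4.25, 5.73, 6.02, 5.36 and 5.78 on the N2 arrays. The N2 arrays spanned the whole range of the xpa-1 arrays, with N2 array 1 the lowest of all 10. The means were 5.27 ± 0.30 in xpa-1 and 5.43 ± 0.70 in N2 (SD, n = 5 each), a difference of -0.15 with a 95% interval of -0.87 to 0.57. That interval allows a signal from 0.545 to 1.48 times the N2 level. Without N2 array 1 the difference was -0.45, and leaving out another array brought it as near to 0 as -0.006.

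The signals of dod-17 (K10D11.1) were 5.0, 4.64, 4.91, 4.70 and 4.39 in xpa-1, against 4.52, 4.70, 5.29, 5.52 and 4.17 in N2. Again the N2 arrays enclosed the xpa-1 arrays, here with N2 array 5 lowest and N2 array 4 highest. The means were 4.73 ± 0.24 in xpa-1 and 4.84 ± 0.56 in N2 (SD, n = 5 each), and the difference was -0.11 (SE 0.256, 95% interval -0.69 to 0.47).

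**Figure D1:**
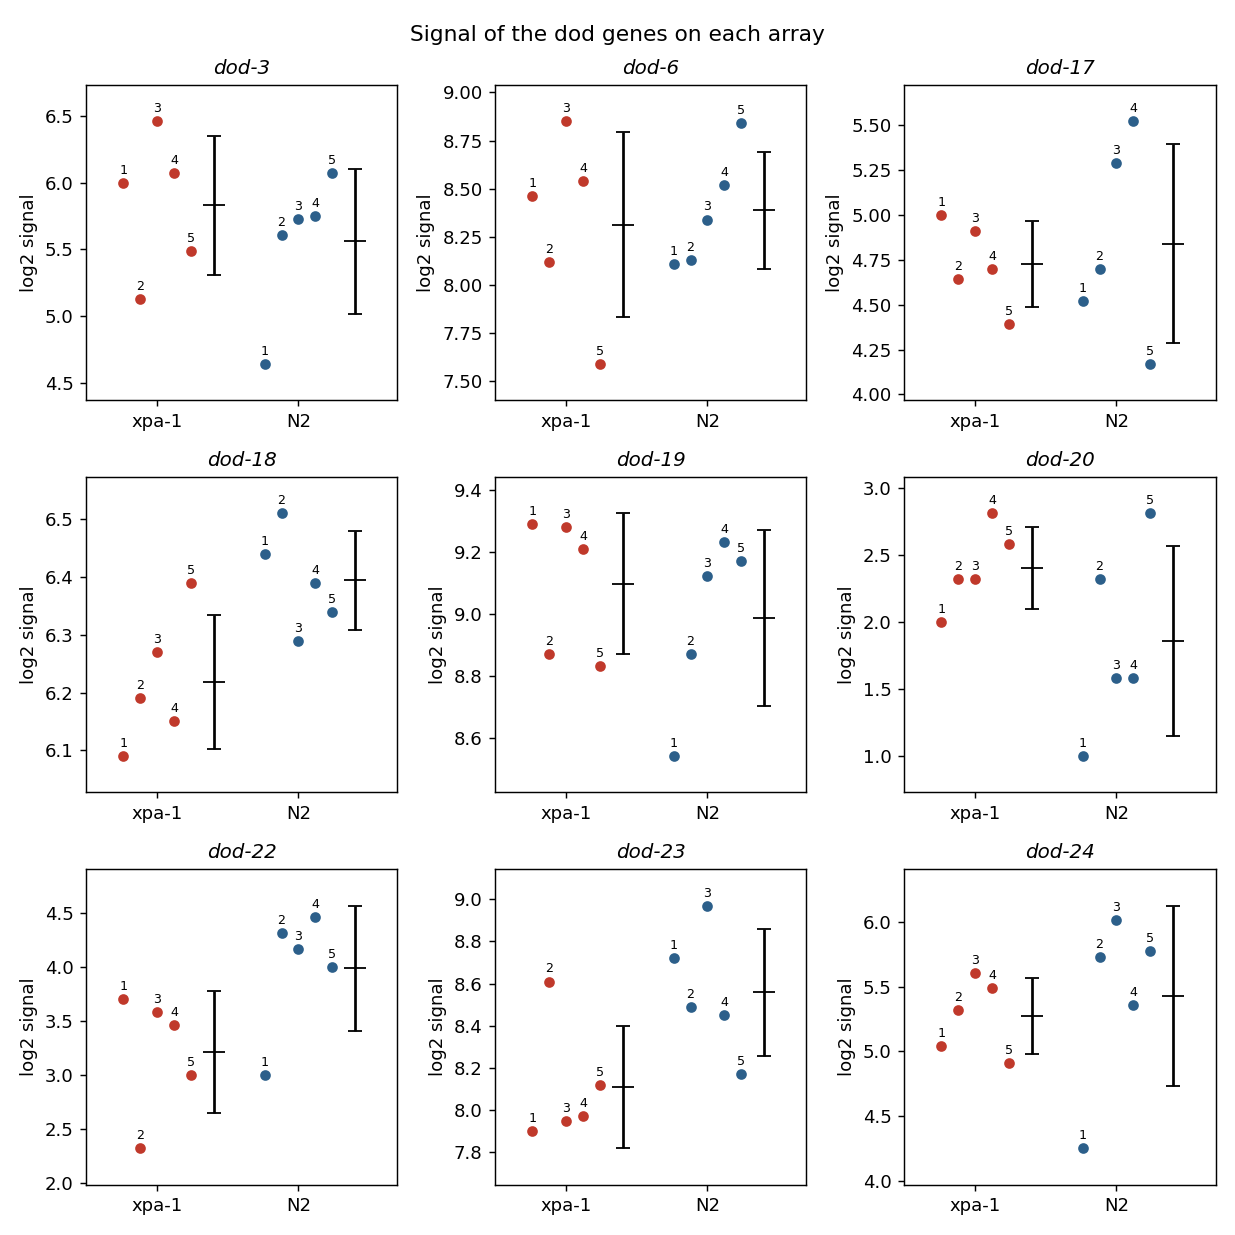
Log2 probe set signal of each dod gene on the 5 xpa-1 arrays (red) and the 5 N2 arrays (blue), 1 panel per gene with its own vertical axis; digits are replicate numbers, and black bars show the mean ± SD. The strains overlap in every panel, and N2 replicate 1 is the lowest of the 10 arrays for dod-3, dod-19, dod-20 and dod-24.

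Among the other class II genes, dod-23 (F49E12.2) and dod-18 (C54G4.6) were lower in xpa-1 without passing the threshold. The signals of dod-23 were 7.90, 8.61, 7.95, 7.97 and 8.12 in xpa-1, against 8.72, 8.49, 8.97, 8.45 and 8.17 in N2. Except for array 2, the xpa-1 arrays all lay below the lowest N2 array. The means were 8.11 ± 0.29 in xpa-1 and 8.56 ± 0.30 in N2 (SD, n = 5 each), which differ by -0.45 (SE 0.18, limma unadjusted p = 0.0334, adjusted p = 1, exact permutation p = 0.0476, two-sided). The difference was -0.58 without xpa-1 array 2 (limma unadjusted p = 0.00548) and -0.35 without N2 array 3 (limma unadjusted p = 0.0767). With arrays centred on their medians the unadjusted p was 0.0638 in limma. The interval over all arrays, -0.86 to -0.044, allows from 0.553 to 0.97 times the N2 signal.

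For dod-18 the xpa-1 arrays read 6.09, 6.19, 6.27, 6.15 and 6.39, against 6.44, 6.51, 6.29, 6.39 and 6.34 on the N2 arrays. All but xpa-1 array 5 were below every N2 array, within a narrow span of 0.42 over the 10 arrays. The difference of -0.18 (SE 0.0741, limma unadjusted p = 0.0411, adjusted p = 1, exact permutation p = 0.0397, two-sided) is a signal 1.13-fold lower in xpa-1. After centring each array on its median the unadjusted p was 0.186 in limma.

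The neighbours dod-19 (ZK6.10) and dod-20 (B0554.6) had positive differences, which did not pass. For dod-19 the xpa-1 arrays read 9.29, 8.87, 9.28, 9.21 and 8.83, against 8.54, 8.87, 9.12, 9.23 and 9.17 on the N2 arrays, so that the strains covered much the same range. The difference was 0.11 (SE 0.158, 95% interval -0.25 to 0.47) and -0.0015 without N2 array 1. The second probe set of dod-19, the only gene of the 9 with more than 1, differed by 0.26 (SE 0.13, limma unadjusted p = 0.0749, adjusted p = 1). The dim dod-20 read 2.0, 2.32, 2.32, 2.81 and 2.58 in xpa-1, against 1.0, 2.32, 1.58, 1.58 and 2.81 in N2. These are the coarse lowest steps of the scale, and the difference of 0.55 (SE 0.325, 95% interval -0.18 to 1.28) did not pass. It was 0.10 with 16 added to the unlogged signals and between 0.33, without N2 array 1, and 0.79, without N2 array 5, when 1 array was left out.

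The class I genes differed by less than their spread between arrays. For dod-3 (C24B9.9) the xpa-1 arrays read 6.0, 5.13, 6.46, 6.07 and 5.49, against 4.64, 5.61, 5.73, 5.75 and 6.07 on the N2 arrays. The highest array was from xpa-1 and the lowest from N2, with the other arrays interleaved. The means were 5.83 ± 0.52 in xpa-1 and 5.56 ± 0.54 in N2 (SD, n = 5 each). They differed by 0.27 (SE 0.317, 95% interval -0.44 to 0.98), and by 0.04 without N2 array 1. For dod-6 (T20G5.7) the xpa-1 arrays read 8.46, 8.12, 8.85, 8.54 and 7.59, against 8.11, 8.13, 8.34, 8.52 and 8.84 on the N2 arrays. Apart from the low xpa-1 array 5 the strains lay on top of each other, and the difference was -0.076 (SE 0.241, 95% interval -0.62 to 0.47). The probe sets of dod-3, dod-6, dod-19 and dod-24 are of the array's classes whose probes can match several related transcripts.

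**Figure D2:**
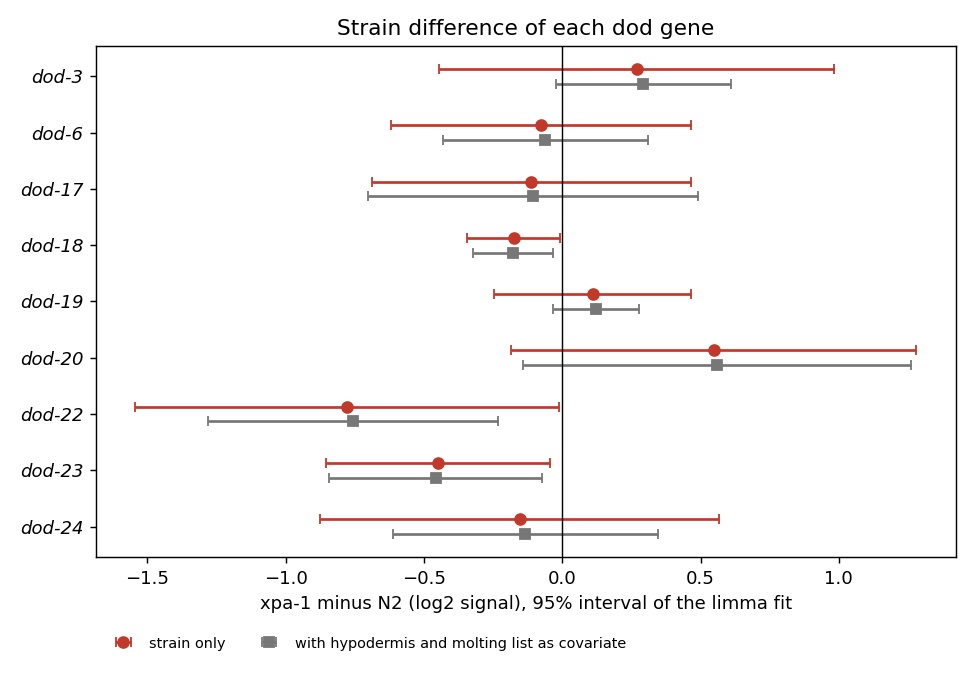
Difference of each dod gene, xpa-1 minus N2 in log2 signal, with the 95% interval of the limma fit; red circles are the fit with strain alone and grey squares the fit with the array mean of the hypodermis and molting list as a covariate. Intervals of dod-18, dod-22 and dod-23 lie below 0 in both fits without passing the threshold over all genes, and the others cross 0.

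Spread between arrays was large for most of the dod genes. Of the 9, 7 had a mean signal of 4 or more, and the median of their within-strain SD, pooled over the strains, was 0.401, against 0.214 over the 8678 genes at or above that mean. Neither this comparison nor the percentages that follow matched genes for signal level. The pooled SD of dod-24 was 0.537, that of dod-3 was 0.532, and 6.12% and 6.27% of those 8678 genes had a larger one. At the other end, dod-18 had a pooled SD of 0.102, and 93.2% of the genes had a larger one. Over the 10 arrays the signal spanned 4.41-fold for dod-22, 3.53-fold for dod-3, 3.41-fold for dod-24 and 1.34-fold for dod-18.

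Between the strains, 7 of the 9 genes had the larger SD in N2, as did 54.7% of all genes. Among those with a mean of 4 or more it was 5 of 7, against 64.2% of all such genes, and by the mean absolute deviation that was tested it was 5 of the 9. The SD of dod-24 was 0.30 in xpa-1 and 0.70 in N2, that of dod-17 was 0.24 in xpa-1 and 0.56 in N2, and that of dod-20 was 0.31 in xpa-1 and 0.71 in N2. The reverse held for dod-6, at 0.48 in xpa-1 and 0.30 in N2, and for dod-18, at 0.12 in xpa-1 and 0.086 in N2. Tested as the absolute deviation of each array from its strain mean, 0 of the 9 passed in limma, where 1.13% of all genes were called, and 1, dod-17, had an unadjusted p under 0.05 (0.0389, adjusted p = 0.467), against 9.45% of all genes. All 193 genes called for spread had a mean signal under 4, and in 171 of them 1 strain had no spread at all. In simulated arrays this test, adjusted over all genes, had little power at 5 arrays per strain, so these p-values do not show that the spreads are alike. Without N2 array 1 the absolute deviation of dod-24 no longer differed in the same direction (0.058 in xpa-1 minus N2, against -0.29 with all arrays).

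The dod genes did not vary between arrays as 1 block. Of 36 pairs, 24 had a positive Pearson r over the 10 arrays, from -0.656 to 0.911, and 1 had an adjusted p under 0.05 over the 36 pairs in a permutation test. That pair was dod-3 and dod-19, a class I and a class II gene (r = 0.911, permutation p = 0.00019, adjusted p = 0.00684, Spearman rho = 0.841, permutation p adjusted 0.0702). Without N2 array 1 and xpa-1 array 3, the arrays farthest from the median of dod-3, r was 0.816, and with the strain means removed it was 0.906. The class I genes dod-3 and dod-6 followed each other more closely in rank than in size (r = 0.693, adjusted p = 0.302, and rho = 0.948, adjusted p = 0.00396, permutation tests). The gene dod-23 ran against dod-3, with r = -0.656 (permutation p adjusted 0.302), and the CUB-like genes dod-22 and dod-24 had r = 0.557 (permutation p adjusted 0.337).

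**Figure D3:**
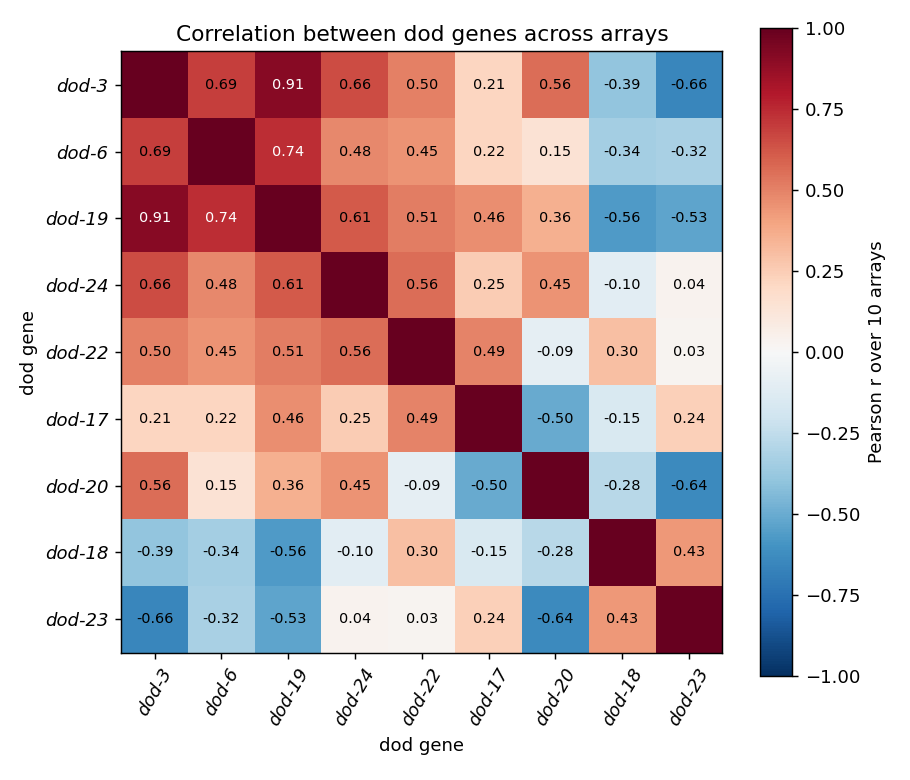
Pearson r between the log2 signals of each pair of dod genes over the 10 arrays, on a colour scale from -1 (blue) to 1 (red). The pair dod-3 and dod-19 has the highest value, 0.911, and the lowest, -0.656, is that of dod-3 and dod-23.

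Array by array, dod-3, dod-6 and dod-19 went with the tissue and stage markers. The 3 lowest arrays of dod-3, dod-6, dod-19 and dod-22 were N2 array 1 and xpa-1 arrays 2 and 5, with N2 array 2 level with xpa-1 array 2 for dod-19. The second probe set of dod-19 differed in this. It was lowest on N2 arrays 1 (8.15) and 2 (8.30) and xpa-1 array 2 (8.32), and read 8.60 on xpa-1 array 5. All correlations of dod-19 given here are of the brighter probe set, and those of the second were not tested. The same 3 arrays were lowest in the mean of the hypodermis and molting list of 9 genes, at 5.61 and 5.38 on xpa-1 arrays 2 and 5 and 4.93 on N2 array 1, against a highest array of 6.94. They were also lowest in the intestine list, the muscle list and the neuron list, and N2 array 1 was the highest of all in the oocyte and maternal germline list, at 9.74. The part of stage and tissue makeup in the levels of the dod genes was not tested beyond these values and the fit with a covariate given below.

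Of 108 relations between the 9 genes and 12 lists, 18 had an adjusted p under 0.05 over the 108 in a permutation test of Pearson r, and 10 in one of Spearman's rho. Of the 18, 6 were of dod-3, 6 of dod-19, 4 of dod-6 and 2 of dod-24, and 17 were positive. By rho, relations of dod-3, dod-6 and dod-24 passed but none of dod-19. Its lowest adjusted p in that permutation test was 0.0548, with the intestine list. The lists share arrays and, in part, genes, so these are not separate observations. The closest in rank was dod-6 with the intestine list, whose 10 arrays stood in the same order (rho = 1, permutation p = 1e-05, the smallest that 100000 resamples can give), with r = 0.913 (permutation p = 1e-05, adjusted p = 0.00108). It was 0.942 without the 2 arrays farthest from the list's median, xpa-1 array 5 and N2 array 1. The list mean itself lay between 8.59 and 8.90 over the 10 arrays, while dod-6 lay between 7.59 and 8.85. On the intestine list 4 arrays lay between 8.59 and 8.64 and the other 6 between 8.75 and 8.90, and over those 6 arrays r was 0.911 for dod-6, 0.829 for dod-3 and 0.576 for dod-19. These relations were sensitive to scaling, and after centring each array on its median 0 of the 108 had an adjusted p under 0.05.

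The defence lists went with several of the genes. The list of p38 MAP kinase and defence regulators, which holds the kinase gene pmk-1 and the transcription factor genes atf-7, skn-1 and zip-2, had r = 0.931 with dod-3 (permutation p = 3e-05, adjusted p = 0.00162, rho = 0.96), and 0.855 without N2 array 1 and xpa-1 array 2. Its r was 0.794 with dod-19 (permutation p adjusted 0.0387) and 0.557 with dod-24 (permutation p adjusted 0.238). The intestinal immune effectors had r = 0.871 with dod-24 (permutation p = 0.00114, adjusted p = 0.0137, rho = 0.83), but 0.594 without N2 array 1 and xpa-1 array 5. With dod-19, dod-3 and dod-6 their r was 0.869, 0.846 and 0.798 (permutation p adjusted 0.0203, 0.0203 and 0.0328), and 0.644, 0.767 and 0.739 without those arrays. For dod-24 and the hypodermis and molting list, r was 0.787 (permutation p = 0.00632, adjusted p = 0.0402, rho = 0.733) and 0.324 without the same arrays, so that relation rests on them. The 1 negative relation passing by r was of dod-19 with the oocyte and maternal germline list. It had r = -0.803 (permutation p = 0.00453, adjusted p = 0.0328), and -0.875 without N2 arrays 1 and 5. Its rho of -0.644 did not pass (permutation p adjusted 0.187). With dod-3 and dod-6 the r of that list was -0.786 and -0.772 (permutation p adjusted 0.0517 and 0.0554). By rho, dod-3 at -0.851 and dod-6 at -0.842 passed (permutation p adjusted 0.0489 each). With dod-24 its r was -0.74 (permutation p adjusted 0.0777). Only dod-18 and dod-23 had a positive r with it, 0.366 and 0.355.

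**Figure D4:**
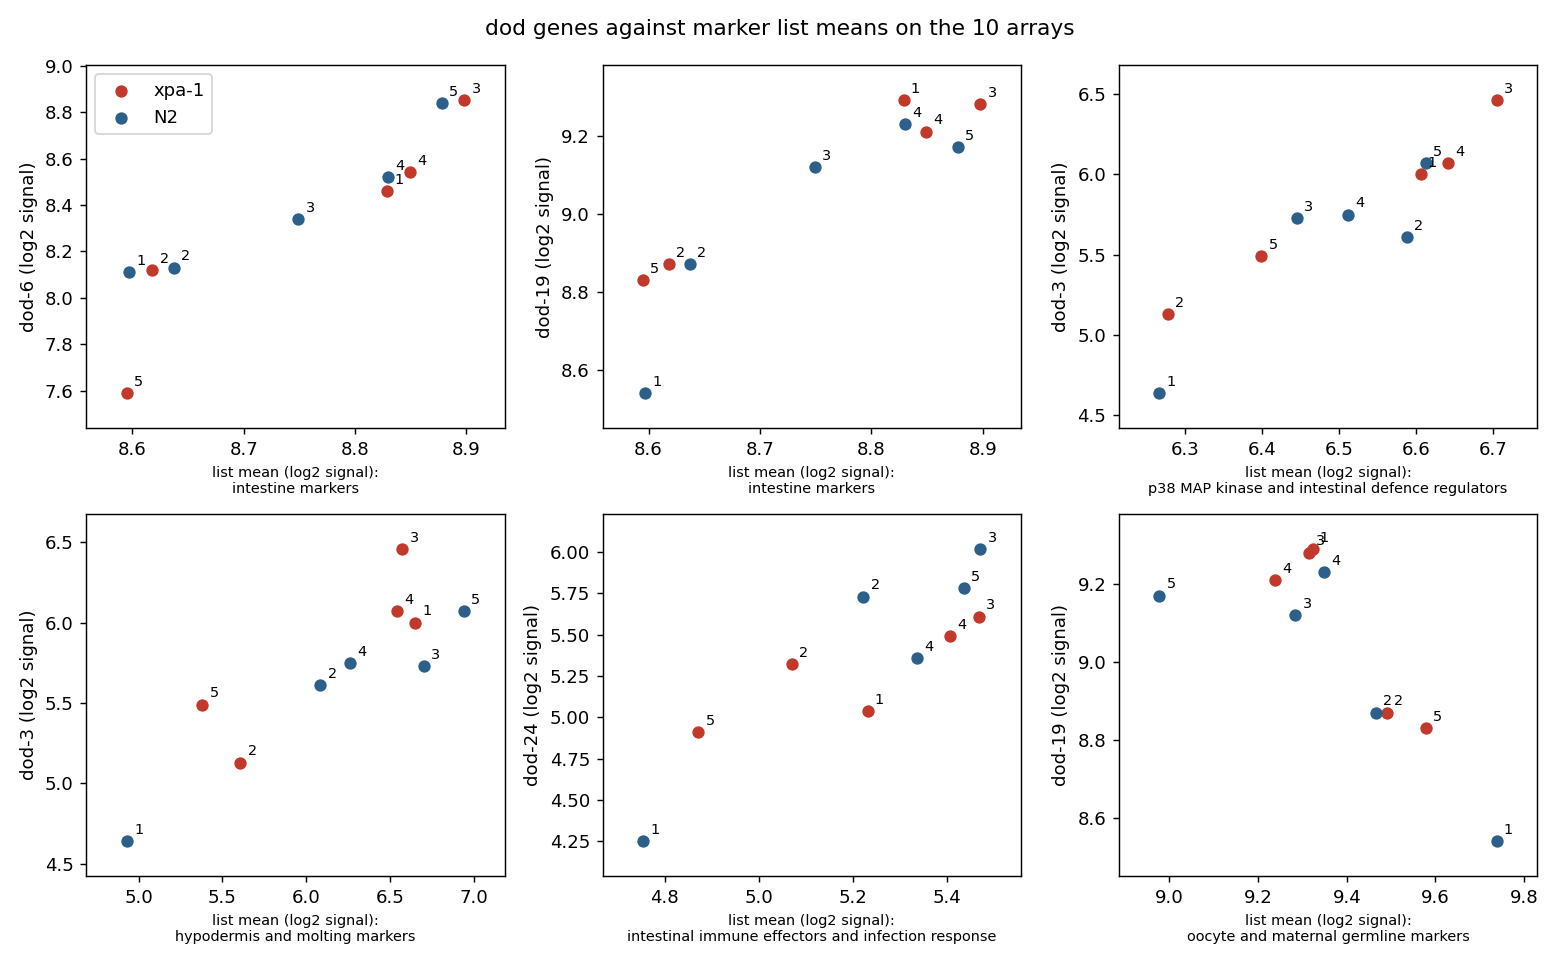
Log2 signal of a dod gene (vertical axis) against the mean log2 signal of a marker list (horizontal axis) on the 5 xpa-1 arrays (red) and 5 N2 arrays (blue), with replicate numbers. N2 array 1 and xpa-1 arrays 2 and 5 are at the low end of the intestine, p38 and hypodermis lists, and N2 array 1 is at the high end of the oocyte list.

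With the hypodermis and molting list as a covariate, an alternative chosen after seeing the data, the differences stayed close to those of strain alone while the standard errors of several genes were smaller. That of dod-22 was -0.76 (SE 0.228, limma unadjusted p = 0.0103, adjusted p = 0.881), and that of dod-23 was -0.46 (SE 0.167, adjusted p = 0.987). That of dod-3 was 0.29 with an SE of 0.138, against 0.317 without the covariate. No dod gene passed in this limma fit.

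The other class I targets (19 measured of 24 listed, with the dod genes left out) had r = 0.9 with the class I gene dod-3 (permutation p = 0.00034, adjusted p = 0.00734, rho = 0.888; 0.86 without N2 arrays 1 and 5). They had r = 0.823 with the class II gene dod-19 (permutation p = 0.00395, adjusted p = 0.0328, rho = 0.772; 0.738 without N2 arrays 1 and 5). Their r with the class I gene dod-6 was 0.705 (permutation p = 0.0216, adjusted p = 0.0935, rho = 0.818; 0.679 without N2 arrays 1 and 5). With the class II gene dod-23 it was -0.741 (permutation p = 0.0155, adjusted p = 0.076, rho = -0.697; -0.782 without N2 arrays 1 and 5), and with the class II genes dod-20, dod-24, dod-22, dod-17 and dod-18 it was 0.69, 0.55, 0.358, -0.09 and -0.483 (permutation p adjusted 0.108, 0.245, 0.524, 0.914 and 0.331). Whether the classes differ in this was not tested. The lowest arrays of this class I list were again N2 array 1 (5.93) and xpa-1 arrays 2 (6.18) and 5 (6.22). These were also the lowest of the tissue lists named above. With dod-3, r was 0.875 for the hypodermis and molting list and 0.867 for the intestine list. Whether the class I list relates to dod genes apart from the tissue lists was not tested. The other class II targets had no relation with an adjusted p under 0.05. Between the strains, 0.111% of all genes passed in limma and 3.32% had an unadjusted p under 0.05, shares that apply to each list count below. Of the 19 class I targets, 0 passed in limma in either direction and 2 had an unadjusted p under 0.05, with a median difference of 0.11. The brightest were sip-1, which encodes a small heat shock protein, at 11.72 ± 0.12 in xpa-1 and 11.65 ± 0.14 in N2, and the glyceraldehyde-3-phosphate dehydrogenase gene gpd-2, at 10.87 ± 0.20 in xpa-1 and 10.99 ± 0.10 in N2 (SD, n = 5 each). The 2 genes were sod-3, a mitochondrial superoxide dismutase gene long used to read out DAF-16, at 7.23 ± 0.17 in xpa-1 and 6.82 ± 0.31 in N2 (difference 0.41, limma unadjusted p = 0.0269, adjusted p = 1), and lea-1, at a difference of 0.52 (limma unadjusted p = 0.0358, adjusted p = 1). They were chosen after their values were seen.

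Of 12 measured class II targets other than dod genes, 0 passed in limma and 1 had an unadjusted p under 0.05, with a median of 0.03. That was the dim guanylate cyclase gene gcy-18, at 2.13 ± 0.66 in xpa-1 and 1.35 ± 0.32 in N2 (SD, n = 5 each), chosen after its values were seen, as were the genes of the other lists named for an unadjusted p. The brightest, the yolk protein gene vit-2 after vit-5, was at 10.86 ± 0.11 in xpa-1 and 10.77 ± 0.18 in N2 (SD, n = 5 each). The insulin signalling core, with 18 genes measured from the receptor daf-2 to daf-16, had 0 past the threshold, 1 at an unadjusted p under 0.05 in limma, rict-1, which encodes a subunit of a TOR kinase complex (difference 0.24, SE 0.0862), and a median of 0.017. Its list mean lay between 6.91 and 7.04 on all 10 arrays. The 25 intestinal immune effectors had 0 past the threshold in limma, 3 at an unadjusted p under 0.05 and a median of -0.076, with the lysozyme genes lys-2 at 10.02 ± 0.20 in xpa-1 and 10.10 ± 0.14 in N2 and lys-1 at 9.94 ± 0.13 in xpa-1 and 10.03 ± 0.20 in N2 (SD, n = 5 each). The 3 genes were fmo-2, a flavin-containing monooxygenase gene, with a difference of 0.48 (SE 0.164), irg-5 with 0.64 (SE 0.264), and F55G11.2, which lies beside dod-22 and is described with its neighbours. The 11 p38 and defence regulators had 0 past the threshold in limma, 0 at an unadjusted p under 0.05 and a median of 0.056.

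Several dod genes are chromosomal neighbours, which the choice of genes did not use. In the gene order of the RefSeq annotation of assembly WBcel235, dod-21, dod-24, dod-22 and dod-17 lie within a stretch of 13 protein-coding genes on chromosome IV, and dod-19 and dod-20 within 4 on chromosome V. The other genes lie apart, with dod-18 on chromosome I, dod-23 on II, dod-6 on III and dod-3 on V. On the chromosome IV stretch, 8 further genes were measured, of which 0 passed in limma, 2 had an unadjusted p under 0.05 and 5 were below 0. Over all genes, 0.111% passed, 3.32% had an unadjusted p under 0.05 and 55.6% were above 0. The median of the 8 was -0.25, and -0.028 with 16 added to the unlogged signals. F55G11.2, next to dod-22, read between 2.81 and 3.81 in xpa-1 and 3.17 and 4.09 in N2 (difference -0.60, SE 0.233, limma unadjusted p = 0.0288, adjusted p = 1), and F55G11.8 on its other side differed by -0.41 (SE 0.249). Beyond F55G11.2, mbug-1 differed by 0.046 (SE 0.506), and its interval of -1.09 to 1.19 is too wide to give a direction. Whether the stretch shared 1 direction was not tested. The other gene with an unadjusted p under 0.05 in limma was F55G11.6, which was listed at 0 on 4 of the N2 arrays and differed by 0.72 (SE 0.305). Most of these genes are dim, and their list mean was 2.96 in xpa-1 and 3.10 in N2. Between dod-19 and dod-20, irg-8 differed by -0.078 (SE 0.112) and Y39D8A.1 by 0.35 (SE 0.096, limma unadjusted p = 0.00534, adjusted p = 0.993). The stretches, and the neighbours named, were chosen after values of the dod genes were seen.

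**Figure D5:**
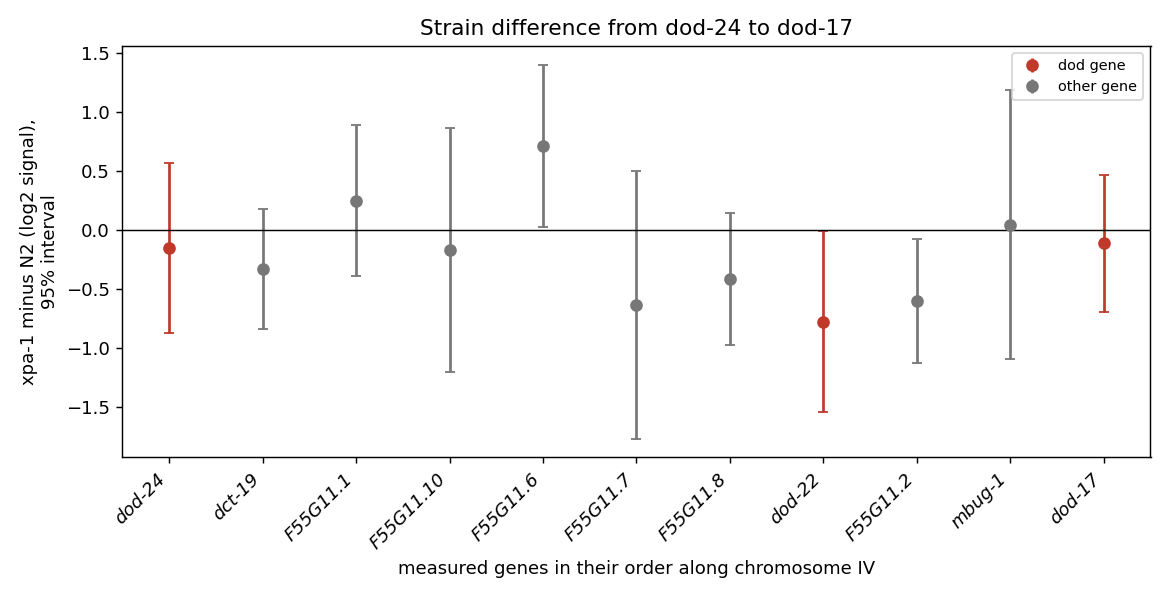
Difference, xpa-1 minus N2 in log2 signal with the 95% interval of the limma fit, of the measured genes from dod-24 to dod-17 in their order along chromosome IV; dod genes are red and other genes grey. The values of dod-22 and F55G11.2, -0.78 and -0.60, are below 0 with their intervals, F55G11.6, a gene at the floor of the scale, is above 0, and the other intervals cross 0.

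The genes most like each dod gene over the 10 arrays were sought among 6871 other genes with a mean signal of 5 or more, as a description with no test. The highest r of so many genes over 10 arrays can be large by selection alone. For dod-19 these were C50F4.8 (r = 0.991), H43E16.1 (0.967) and osta-2 (0.959), and for dod-3 they were ugt-5 (0.982), zip-2 (0.971) and T01D1.4 (0.971). For dod-6 they were phat-7 (0.973), phat-3 (0.959) and clik-2 (0.954). With the strain means removed, r of these 9 genes lay between 0.954 and 0.99. For dod-23 the values were lower, with F55D12.5 at 0.864, let-92 at 0.853 and ilys-5 at 0.841, of which ilys-5, a gene of the invertebrate lysozyme family, had 0.987 with the strain means removed. For dod-22 they were hecd-1 (0.917), the glutathione peroxidase gene gpx-1 (0.917) and F54E2.1 (0.915), for dod-24 they were pkg-2 (0.894), the calcium channel gene egl-19 (0.892) and C14A4.9 (0.891), and for dod-17, dod-18 and dod-20 the highest r were 0.857 (T16G12.1), 0.877 (wht-2) and 0.899 (Y51H4A.8).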

How the data were processed

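The authors deposited a log2 signal per probe set and array, made with Affymetrix Expression Console per the submitters' processing notes. Its version, its summary method and how arrays were scaled to each other are not stated there. Of the values below 5, 100% equalled the log2 of a whole number to within 0.005, which means rounded signals with a floor at 0.

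The 77 control probe sets were left out. Of the other 22548, 20766 had 1 symbol, and these stood for 17118 genes. The deposited log2 values were fitted unchanged with limma 3.58.1 in R 4.3.3 (strain as the only term, two-sided, Benjamini-Hochberg over all genes, threshold 0.05), after a check on simulated data. Spread was fitted the same way on absolute deviations from the strain mean. Correlations used 100000 permutations. Replicates are separate collections of worms. Named genes were the dod genes, xpa-1, the brightest members of lists described by their members, and the 3 genes most like each dod gene; others are marked in the text. The dod genes and the lists were chosen with earlier results of these data known. The sample titles do not say that replicate numbers pair the strains, and the main fit did not pair them. Deviations of same-numbered arrays correlated between -0.266 and -0.031, which cannot exclude a pairing.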

Additional observations from a re-analysis of the deposited data

Results flagged for a closer look

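In 42 groups of 5 values, the 9 dod genes and 12 list means in each strain, the gap between an extreme array and its nearest neighbour was set against the range of the group, where chance gives about 1 in 20. The gap was too wide in 1 group, which was no dod gene. The fasting response list mean was 5.62 on N2 array 3, against 5.10 to 5.16 on the other N2 arrays. Just short of that limit were dod-23 on xpa-1 array 2, at 8.61 against 7.90 to 8.12, and on N2 array 1 dod-22 at 3.0 against 4.0 to 4.46 and dod-3 at 4.64 against 5.61 to 6.07.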

How the results depend on the processing

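In each of the planned settings, and with the covariate, 0 dod genes passed in limma, where the filter on a mean of 4 or more kept 7 of the 9. The count of genes past the threshold, 19, was 12 among genes with a mean of 4 or more, 5 with replicate number as a block, and 13 to 21 when 1 array was left out. The replicate block changed no call of a dod gene over all genes, while 0 of them had an unadjusted p under 0.05 with it, against 3 without. The count for spread, 193, was 34 with arrays centred on their medians, 0 with 16 added to the signals and 0 among genes with a mean of 4 or more. Pairs of dod genes under 0.05, 1 of 36, were 3 with strain means removed and 1 to 3 when an array was left out, with 3 without N2 replicate 1. Relations with lists, 18, were 0 after median centring and 28 with strain means removed. They were 7 (without xpa-1 replicate 5) to 22 when an array was left out. The array medians take only the coarse low steps of the scale (4.00 to 4.25). The range over the arrays was 0.30 for the intestine list and 2.01 for the hypodermis and molting list. Why centring lowered the count was not tested. With strain means removed, the permutations treated the deviations as independent. The p-values behind the counts of pairs and relations in that setting are therefore somewhat too small. Directions turned, in genes that passed in no setting, for dod-6 with array weights (0.023). When 1 array was left out, differences ranged from -0.21 to 0.10 for dod-6, -0.28 to 0.058 for dod-17 and -0.0015 to 0.18 for dod-19. Spread differences ranged from -0.11 to 0.30 for dod-3, -0.027 to 0.23 for dod-6, -0.0089 to 0.049 for dod-18, -0.082 to 0.089 for dod-19, -0.19 to 0.32 for dod-22, -0.18 to 0.058 for dod-23 and -0.42 to 0.058 for dod-24, and that of dod-22 was -0.031 with 16 added. The cause was not tested.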
